A study of Rattus norvegicus with 12 samples.

Results

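Liver mRNA of rats given the herbal decoction QHD (Qushi Huayu Decoction) was compared with that of rats given a mixture of geniposide and chlorogenic acid (GC), which are plant compounds. The comparison rests on 6 of the 12 arrays of the series, 3 for QHD (animals 45, 46 and 47) and 3 for GC (animals 35, 37 and 55), with 1 array per animal, chosen by their labels. All animals were Sprague-Dawley rats. Both treated groups were fed a high-fat diet for 4 weeks and then for 4 more weeks with a daily gavage, of 0.1 ml/kg QHD in one group and of the mixture in the other. No dose of GC is stated in the labels, so whether the doses of both treatments match is unknown. The other arrays were 3 of rats on the high-fat diet without treatment (HFD; animals 24, 36 and 87) and 3 of rats on a normal diet (animals 2, 3 and 4), each labelled 4 weeks. The protocols used here state no total time on the diet for the HFD rats, and no age, sex or hour of killing for any animal. They state a 12 h light and 12 h dark cycle. The labels do not say whether the animals came from 1 batch or shared cages, so the p-values measure the spread between these animals only.

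Of 31099 probe sets on each array, 20832 carried 1 gene symbol and stood for 14218 genes, and all of these were compared. The main test took the brightest probe set of each gene and the 9459 genes whose mean log2 signal over 11 arrays exceeded 6.66, which is the median over the array's probe sets. The signals are MAS5 signals on the log2 scale, so a difference of 1 is a factor of 2 in signal. The array labelled normal diet 3 stood apart: the median signal of 16 hepatocyte markers was log2 6.23 there and 14.64 to 15.12 elsewhere, and its adipocyte markers were high. It was left out of the fit, which leaves 11 arrays. On the QHD and GC arrays hepatocyte markers were at the top of the range, with medians of 14.64 to 14.90 and of 14.81 to 14.95. Over the tested genes, as a description, signals correlated at 0.974 to 0.981 within QHD, at 0.969 to 0.980 within GC and at 0.960 to 0.978 between the groups. The median SD within a group was 0.16 for QHD and 0.16 for GC, and the median half-width of the 95% interval of a difference was 0.36.

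Geniposide is an iridoid glycoside known from gardenia fruit and chlorogenic acid is a phenolic ester found in many plants, and both are used as marker compounds of herbal preparations. Livers handle such compounds through enzymes that oxidise, conjugate and export them. Many of the conjugating and glutathione enzymes are driven by the transcription factor NRF2, which leaves its inhibitor KEAP1 when electrophiles react with it and binds antioxidant response elements near its targets. The liver also runs a circadian clock, in which CLOCK or NPAS2 with BMAL1 drive the Per and Cry repressors and the Rev-erb receptors, so that mRNA levels of these genes vary over the day.

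Between QHD and GC livers 26 of 9459 genes were called, which is 0.275%, at an adjusted p under 0.05 in limma. Of these, 18 (0.19%) were higher and 8 (0.0846%) lower with QHD. They held genes of glutathione synthesis and conjugation and the clock repressor Cry1 among the higher ones, and the clock activator Npas2, the glucokinase regulator Gckr and the tryptophan enzyme Kynu among the lower ones. In all 26 the QHD and GC arrays did not overlap, which was the case for 1748 of the 9459 genes (18.5%), 867 higher with QHD (9.17%) and 881 lower (9.31%). Sizes ran from 0.58 to 3.89 on the log2 scale. There were 944 genes at an unadjusted p under 0.05, and the median difference over all genes was -0.01.

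**Figure D1:**
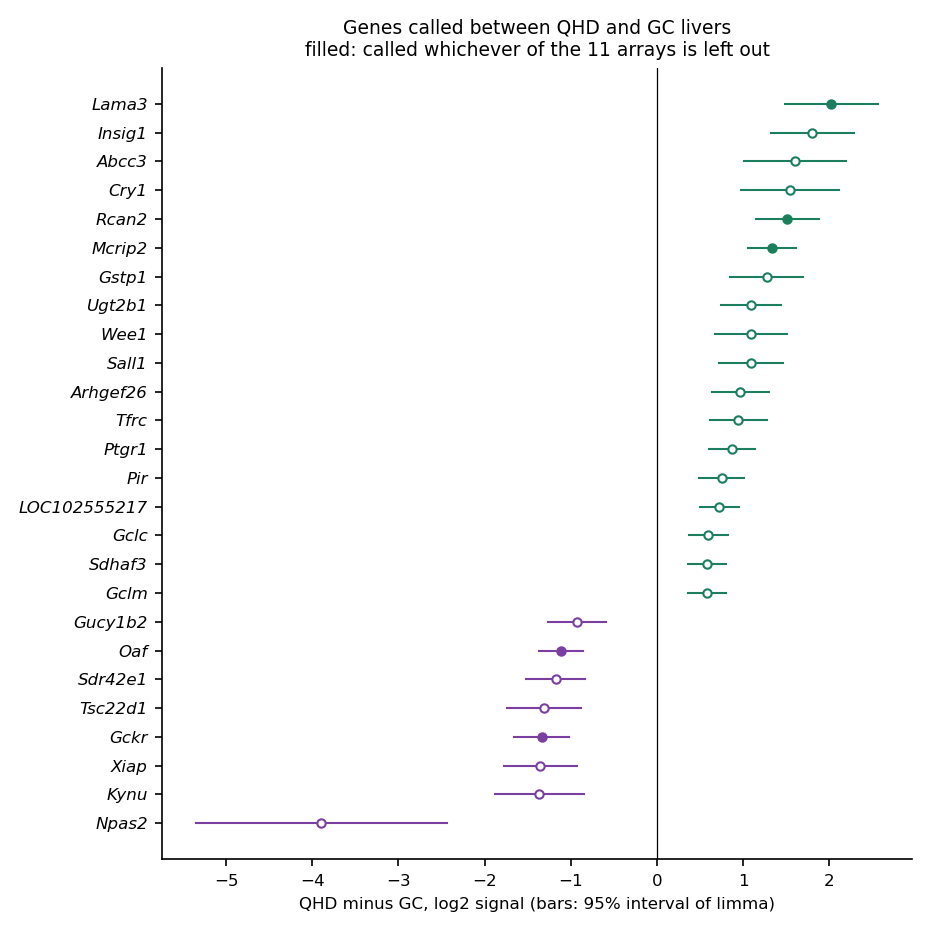
Log2 difference of QHD minus GC for the 26 genes called, with the 95% interval of limma as bars (n = 3 animals in each group). Points to the right were higher with QHD, and the 5 filled points (Lama3, Rcan2, Mcrip2, Oaf and Gckr) passed the threshold in each of the 11 fits without 1 array.

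The number of calls changed with the arrays in the fit. Over all 12 arrays limma called 0 genes, with 277 at an unadjusted p under 0.05, and over the 6 QHD and GC arrays alone it called 70, of which 23 were among the 26. Leaving out 1 of these 6 arrays gave 6 to 11 calls, and leaving out HFD 36 gave 59. Tested over all 20832 probe sets with 1 symbol and no filter, 22 genes were called, 19 of them among the 26. Beyond the 5 genes called in each of the 11 fits without 1 array, the other 21 were called in 1 (Gclm) to 9 (Insig1) of them. No gene of the 26 changed sign under any setting tried, though many settings could not have turned one. Without weights, a change in the HFD or normal diet arrays or in the moderation leaves QHD minus GC as it is. The groups did not overlap in these genes, so leaving out 1 QHD or GC array could not turn the sign either.

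Genes of the NRF2 and glutathione synthesis list were higher with QHD where they were called. Of 36 measured, 3 were called higher (0.19% of all genes were) and none lower (0.0846%). The QHD and GC arrays did not overlap in 10 of them, 9 higher with QHD (25%, against 9.17% of all genes) and 1 lower, and 29 of the 36 differences were positive, with a median of 0.23. Gclc, the catalytic subunit of glutamate-cysteine ligase, the rate-limiting enzyme of glutathione synthesis, stood at log2 12.34, 12.21 and 12.34 on the QHD arrays and at 11.79, 11.59 and 11.73 on the GC arrays. Every QHD animal lay above every GC animal, by a mean of 0.60 ± 0.10 (SE, 1.51-fold, adjusted p = 0.0432). Gclm, the regulatory subunit of the same enzyme, stood at 12.77, 12.64 and 12.68 with QHD and at 12.25, 12.14 and 11.98 with GC. That is a difference of 0.58 ± 0.10 (SE, 1.49-fold, adjusted p = 0.0475). Both calls lie near the threshold: Gclc was called in 2 of the 11 fits that leave out 1 array and Gclm in 1. Beside the HFD arrays, which both comparisons share, Gclm lay 1.20 ± 0.10 higher with QHD and 0.62 ± 0.10 higher with GC (SE).

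Abcc3, an export pump for glucuronide conjugates on the blood side of the hepatocyte, was the third called member. It stood at 9.33, 8.19 and 8.86 with QHD and at 7.26, 7.10 and 7.22 with GC, a difference of 1.60 ± 0.27 (SE, 3.03-fold, adjusted p = 0.0425). The GC arrays lay within the range of HFD and normal diet, 7.16 to 7.82, except GC 37 just under it. QHD 46 was the lowest of its group here, as in Gsta3 and Ugt2b1 below. Outside the list, Ptgr1, a reductase of alkenals and prostaglandins, stood at 12.29, 12.01 and 12.20 with QHD and at 11.27, 11.47 and 11.15 with GC (0.87 ± 0.12, SE, adjusted p = 0.0186). Pir, the nuclear iron protein pirin, stood at 11.31, 10.97 and 11.01 against 10.28, 10.38 and 10.37 (0.75 ± 0.12, SE, adjusted p = 0.0278). Both are known as targets of NRF2. Nfe2l2, the mRNA of NRF2 itself, went the other way without a call, at 11.97 ± 0.07 with QHD and 12.53 ± 0.16 with GC (SD, n = 3 in each; adjusted p = 0.432). Gsr, which reduces oxidised glutathione and was named after its values were seen, had 0.87 with a 95% interval from 0.38 to 1.36 and was not called (adjusted p = 0.173).

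The promoters of the genes called were searched for 5 motifs, of which the core of the antioxidant response element (TGACNNNGC, either strand) was found most often. Of the 26 genes, 18 matched a RefSeq promoter of build GRCr8 with 250 bases before and 50 after the start, and 5 of the 18 (27.8%) held this core: Gstp1, Gclm, Pir, Lama3 and Rcan2, the last after its start. Among all 33469 promoters of that length the share was 12.1%. The 250 bases before the start of Gstp1 (chr1:210769706-210769955, minus strand), Gclm (chr2:213031885-213032134, plus strand) and Pir (chrX:33851050-33851299, minus strand) are shown, since these are the called genes of this group whose promoter holds the core. Each is written 5′ to 3′ in the direction of its gene, up to the base before the start, and the capitals mark the core.
Gstp1: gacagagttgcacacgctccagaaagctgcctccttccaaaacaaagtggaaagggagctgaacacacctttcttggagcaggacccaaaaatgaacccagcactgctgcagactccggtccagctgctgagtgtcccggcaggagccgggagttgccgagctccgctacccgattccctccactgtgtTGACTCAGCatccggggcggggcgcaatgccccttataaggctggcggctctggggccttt
Gclm: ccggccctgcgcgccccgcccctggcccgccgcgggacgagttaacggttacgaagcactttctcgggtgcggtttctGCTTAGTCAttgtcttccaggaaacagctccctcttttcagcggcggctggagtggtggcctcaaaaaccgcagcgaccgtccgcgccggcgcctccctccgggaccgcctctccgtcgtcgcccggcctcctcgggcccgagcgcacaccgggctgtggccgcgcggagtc
Pir: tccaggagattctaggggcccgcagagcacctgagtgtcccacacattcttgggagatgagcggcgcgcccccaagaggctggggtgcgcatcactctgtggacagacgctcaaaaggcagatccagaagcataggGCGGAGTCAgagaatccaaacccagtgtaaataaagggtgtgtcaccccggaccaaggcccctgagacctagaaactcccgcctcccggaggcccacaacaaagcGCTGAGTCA

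The core begins 61 bases before the start of Gstp1 and 172 before that of Gclm, and Pir holds it at 114 and at 9 bases. The promoter of Gclc was searched as well and held none of the 5 motifs, and Abcc3 and Ptgr1 had no matched promoter. The matches describe the letters and not binding. The other motifs searched on both strands were the E-box (CACGTG, in 11.1% of the 18 and 6.42% of all promoters), the D-box (TTATGNAA, 5.56% and 3.66%), a sterol regulatory element (TCACNCCAC, in none of the 18 and 1.12% of all) and the paired nuclear receptor site DR1 (in none and 0.0538%). The E-boxes lay in Insig1 and, after its start, in Oaf, and the D-box lay in Ugt2b1. A motif that is absent here says only that its letters are not in this window.

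Glutathione transferases join glutathione to electrophiles, and 1 of the 17 measured was called (0.275% of all genes were). Gstp1, the pi class transferase, stood at 11.72, 12.06 and 12.69 with QHD and at 10.99, 10.74 and 10.92 with GC. The GC arrays lay close to the HFD arrays (10.72, 10.78 and 10.82), and every QHD array lay above both groups. The difference was 1.27 ± 0.19 (SE, 2.42-fold, adjusted p = 0.0253). In 9 of the 17 transferases every QHD array was above every GC array (52.9%, against 9.17% of all genes), and in none was the reverse seen. The median difference was 0.28, and 0.18 without QHD 45. Gsta3, an alpha class transferase, stood at 12.19, 10.61 and 12.00 with QHD and at 9.14, 9.79 and 9.76 with GC, while the HFD arrays read 7.70 to 8.03. Both treated groups thus lay above every HFD array, and the difference between them was 2.04 ± 0.40 (SE, adjusted p = 0.101), not called. Gsta4 had 0.45 ± 0.13 (SE, adjusted p = 0.254). Transferases of 1 class are similar in sequence, so their probe sets may share signal.

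Among 25 conjugating and hydrolysing enzymes, 1 was called (0.275% of all genes were). Ugt2b1, a glucuronosyltransferase, stood at 14.30, 13.93 and 14.21 with QHD and at 12.92, 13.24 and 13.00 with GC, a difference of 1.10 ± 0.16 (SE, 2.14-fold, adjusted p = 0.019). The normal diet arrays, at 14.02 and 13.51, lay among the QHD arrays and between the groups. In 9 of the 25 every QHD array was above every GC array (36%, against 9.17% of all genes) and in none below, and the median difference was 0.23. Ces2c, a carboxylesterase, had 1.32 ± 0.32 (adjusted p = 0.168), and Akr1c14, a reductase of steroids and bile acids, 0.56 ± 0.15 (adjusted p = 0.214). None of 24 cytochrome P450 genes of families 1 to 3 with their reductase was called (0.275% of all genes were). In 7 of them every QHD array was above every GC array (29.2%, against 9.17% of all genes) and in none below. Cyp2j4, a P450 of fatty acid epoxidation, had 0.82 ± 0.19 (adjusted p = 0.135), Cyp1a2, a target of the aryl hydrocarbon receptor, 0.54 ± 0.15 (adjusted p = 0.234) and Cyp2a1, a steroid hydroxylase, 0.42 ± 0.15 (adjusted p = 0.350). Cyp1a1, another target of that receptor that was named after its values were seen, stood at 10.26, 9.44 and 11.01 with QHD and at 6.73, 7.68 and 5.36 with GC. The HFD arrays ranged from 1.02 to 8.13, a spread that leaves a 95% interval of 0.15 to 7.15 and no call (adjusted p = 0.480).

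**Figure D2:**
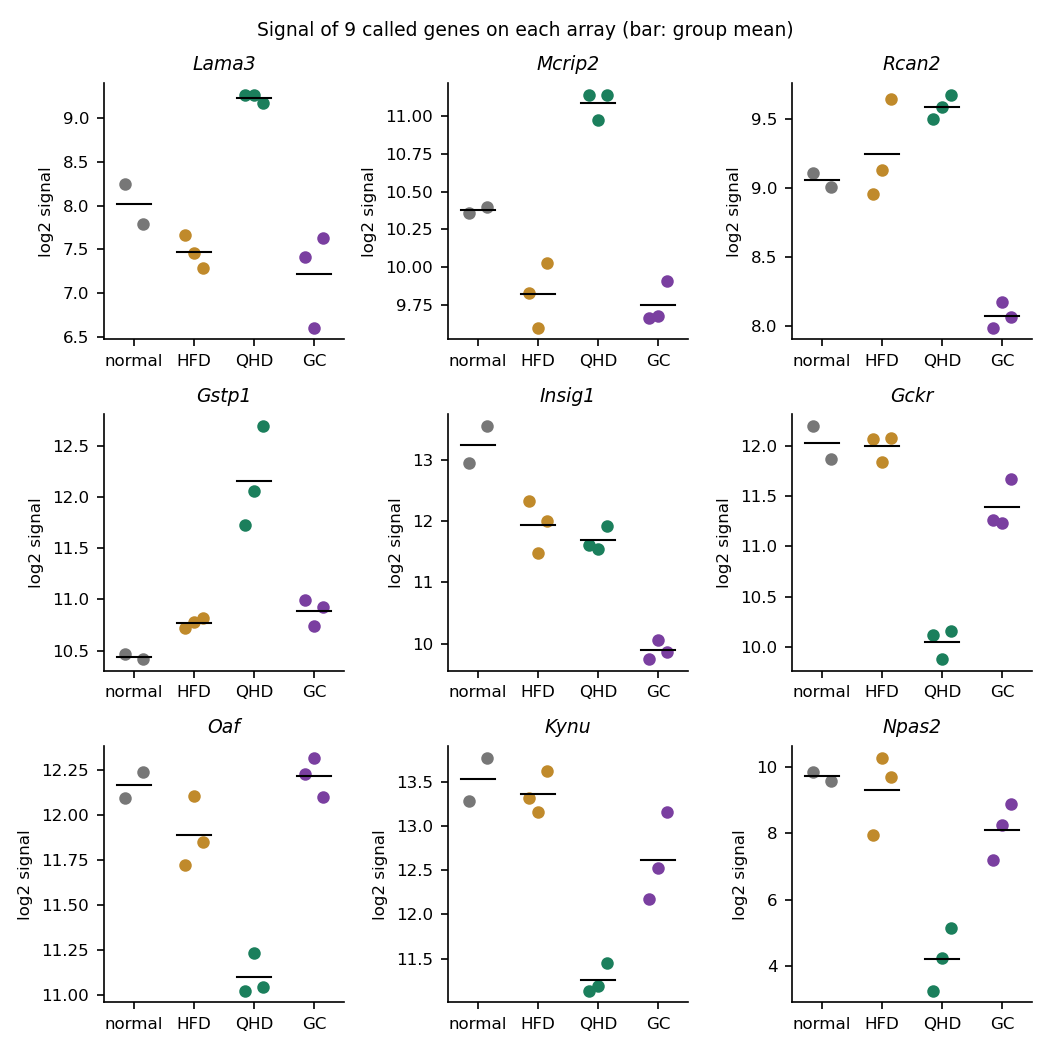
Log2 signal of 9 called genes on each array of the 4 groups, with the group mean as a bar (normal diet n = 2 without array 3, other groups n = 3). In each gene the QHD and GC arrays did not overlap. Insig1 and Rcan2 were lowest with GC, while Gstp1, Lama3 and Mcrip2 were highest with QHD.

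Clock genes differed in both directions. Of 21 measured, 2 were called higher with QHD (0.19% of all genes were) and 1 lower (0.0846%). In 11 of the 21 the QHD and GC arrays did not overlap, 9 higher with QHD (42.9%, against 9.17% of all genes) and 2 lower (9.52%, against 9.31%). Cry1, a repressor of CLOCK and BMAL1, stood at 9.34, 9.60 and 9.86 with QHD and at 7.65, 7.95 and 8.59 with GC, with a difference of 1.54 ± 0.26 (SE, 2.91-fold, adjusted p = 0.0425). The normal diet arrays (10.02 and 9.74) were near the QHD level and the HFD arrays (7.98, 8.49 and 8.77) near the GC level. Wee1, a kinase that holds back entry into mitosis and is under clock control, stood at 8.22, 8.23 and 8.55 against 7.51, 7.17 and 7.05 (1.09 ± 0.19, SE, adjusted p = 0.0468). A second probe set of Wee1 had 0.44 ± 0.34 (SE) and no call. Npas2, a partner of BMAL1, stood at 3.26, 4.24 and 5.13 with QHD and at 7.18, 8.23 and 8.89 with GC, a difference of -3.89 ± 0.65 (SE, adjusted p = 0.0491). The QHD signals lay under the filter level of 6.66, where the size of a difference is uncertain. Adding 32 to each linear signal gave -2.57 and no call (adjusted p = 0.0878).

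Of the 11 fits that leave out 1 array, 4 called Cry1, 2 called Wee1 and 2 called Npas2. Nr1d1, the receptor Rev-erb alpha that represses Npas2 and BMAL1, was not called (adjusted p = 0.0805). It read 7.36, 6.64 and 6.25 with QHD against 9.68, 9.90 and 9.12 with GC, with a 95% interval of the difference from -3.97 to -1.66. Further clock genes were named after their values were seen. Per1 and Per2, repressors that pair with the cryptochromes, had differences of 2.14 and 1.23 (adjusted p = 0.445 and 0.443), and Noct, a phosphatase with a daily rhythm, had 2.23 (adjusted p = 0.168). In Bmal1 the arrays overlapped (7.43 to 7.87 with QHD, 6.44 to 8.36 with GC). Dbp, an output factor of the clock, also overlapped, at 8.50 to 9.51 and 8.53 to 11.33. Among the untreated HFD arrays Per1 ranged from 5.10 to 8.78 and Dbp from 6.15 to 9.84, wider than the difference between QHD and GC in these 2 genes. The HFD range was narrower than that difference in Cry1 (7.98 to 8.77), Wee1 (7.07 to 7.38), Npas2 (7.95 to 10.27) and Nr1d1 (7.76 to 9.93). The fit uses the spread of the HFD arrays, so genes picked for a small p tend to have a narrow HFD range. Per2 and Noct were not set against their HFD range. The part of the clock in the other differences between QHD and GC was not tested.

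**Figure D3:**
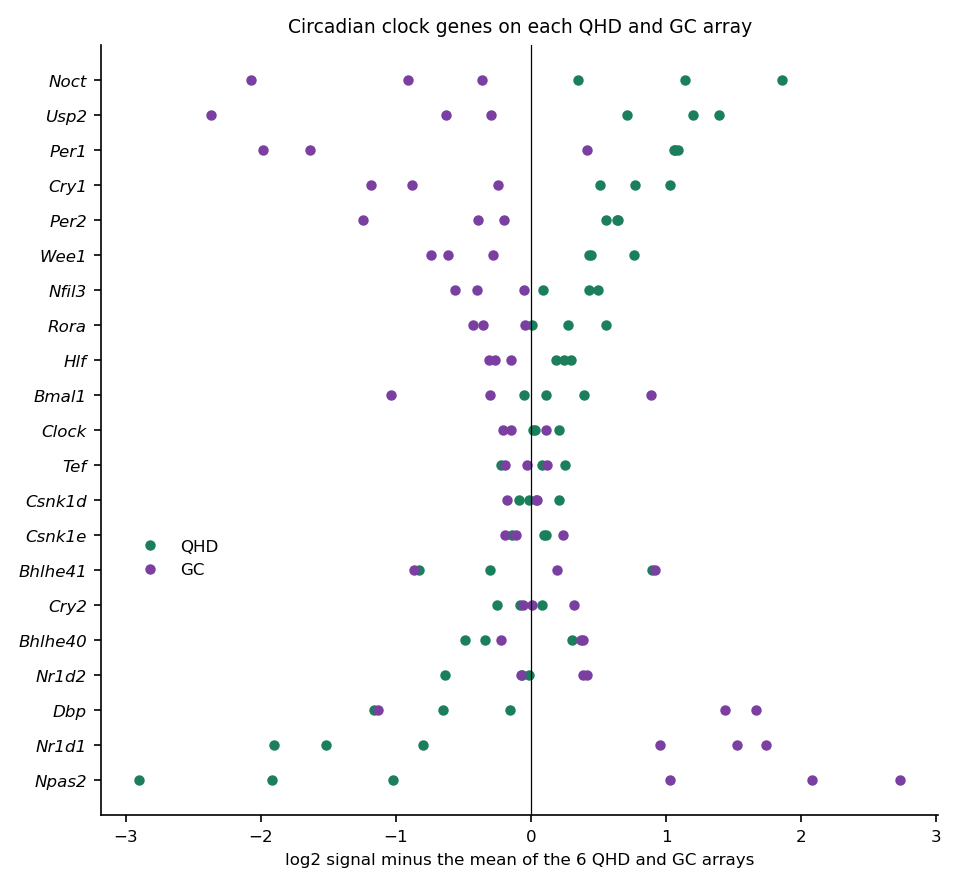
Log2 signal of 21 clock genes on each QHD and GC array, minus the mean of those 6 arrays. Genes are ordered by QHD minus GC, from Npas2 at the foot to Noct at the top, and in 11 of the 21 the groups did not overlap.

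Insig1, which helps to retain the SREBP factors in the endoplasmic reticulum, was higher with QHD than with GC. It stood at 11.61, 11.55 and 11.92 against 9.74, 10.06 and 9.87, a difference of 1.80 ± 0.22 (SE, 3.49-fold, adjusted p = 0.00804). The QHD arrays lay among the HFD arrays (11.48 to 12.34), with -0.25 ± 0.22 beside HFD, while GC lay at -2.05 ± 0.22 (SE). The call was lost without GC 35 or GC 55. Insig1 was the only one of 26 sterol and lipid sensors called (0.275% of all genes were). In 4 of them every QHD array was above every GC array (15.4%, against 9.17% of all genes) and in 1 below, and the median difference was -0.06. Cebpa, a liver transcription factor, had -0.47 ± 0.18 (adjusted p = 0.415) and Nr1i2, the pregnane X receptor, 0.53 ± 0.25 (adjusted p = 0.518).

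No gene of cholesterol synthesis and uptake was called among 18 measured (0.275% of all genes were). In 5 every QHD array was above every GC array (27.8%, against 9.17% of all genes) and in none below, with a median difference of 0.09. Pmvk, which phosphorylates mevalonate phosphate, had 0.55 ± 0.17 (adjusted p = 0.272), Sc5d, a sterol desaturase, 0.34 ± 0.12 (adjusted p = 0.331) and Msmo1, a sterol demethylase, 0.48 ± 0.16 (adjusted p = 0.346). The other probe sets of Sc5d had smaller differences of 0.12 ± 0.10 and 0.14 ± 0.11 (SE). None of 21 genes of fatty acid synthesis was called either, with 5 apart upward (23.8%, against 9.17%), 1 downward and a median of 0.12. Me1, which makes NADPH for lipid synthesis and is also in the list of NRF2 and glutathione synthesis, had 0.72 ± 0.19 (adjusted p = 0.214). Its second probe set, which the main test did not use, had a larger difference of 0.98 ± 0.16 (SE, unadjusted p = 4.63e-05 in limma).

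A panel of fatty liver genes gave no call between QHD and GC in any of its 16 measured members (0.275% of all genes were called). Their differences ran from -0.91 to 0.68. Scd, the desaturase of stearate, stood at 9.98, 8.91 and 10.58 with QHD and at 11.04, 9.93 and 9.16 with GC, and both sets lay under the HFD arrays (11.85 to 13.36). Its difference was -0.22 with a 95% interval from -1.49 to 1.06, which reaches past 1 log2 unit in both directions. The interval was from -0.65 to 0.32 for Plin2, a lipid droplet coat protein, and from -0.98 to 0.85 for Srebf1, a driver of lipid synthesis. Mttp, which loads lipid onto lipoproteins, had the tight interval of -0.21 to 0.33, and Pck1, an enzyme of glucose production, of -0.37 to 0.11. Cd36, a fatty acid carrier, had 0.68 (interval 0.11 to 1.24, adjusted p = 0.415). Cyp7a1, the first enzyme of bile acid synthesis, had -0.45 (-1.79 to 0.90). Il1b, a cytokine, had -0.91 (-1.99 to 0.16). A p above the threshold does not show that the treatments acted alike on these genes.

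Of 30 genes of glucose metabolism and insulin signalling, 1 was called (0.275% of all genes were), and it was lower with QHD. Gckr, which binds and inhibits glucokinase, stood at 10.12, 9.88 and 10.16 with QHD and at 11.27, 11.23 and 11.67 with GC, a difference of -1.34 ± 0.14 (SE, 2.52-fold, adjusted p = 0.00344). It stood at 11.84 to 12.08 on the HFD arrays, so that both treated groups lay below all HFD arrays, QHD by -1.94 ± 0.14 and GC by -0.61 ± 0.14 (SE). Gckr kept its call in each of the 11 fits that leave out 1 array. Other members that were not called differed in both directions. Pygl, the glycogen phosphorylase of liver, had -0.67 ± 0.14 (adjusted p = 0.112), Pfkfb1, which sets the level of a glycolytic activator, 0.94 ± 0.23 (adjusted p = 0.161) and Igfbp1, a binding protein of insulin-like growth factors, 1.35 ± 0.32 (adjusted p = 0.161). Over the list the arrays were apart upward in 3 and downward in 3 of 30 (10% each), close to the shares among all genes. Gk, the glycerol kinase, which is outside the list, had -0.97 ± 0.18 (adjusted p = 0.0805).

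Among 16 genes of tryptophan breakdown and NAD synthesis, only Kynu was called, lower with QHD (0.0846% of all genes were called lower). Kynu, the kynureninase, stood at 11.14, 11.19 and 11.45 with QHD and at 12.18, 12.52 and 13.16 with GC, with a difference of -1.36 ± 0.23 (SE, 2.57-fold, adjusted p = 0.0475). The GC arrays spread over about 1 log2 unit, and GC 55 reached the lowest HFD array (13.16). It was called in 2 of the 11 fits that leave out 1 array. Kmo, which acts on kynurenine before Kynu, had 0.59 ± 0.16 (adjusted p = 0.214), and Kyat1, a kynurenine transaminase, 0.51 ± 0.12 (adjusted p = 0.155).

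No gene was called among 37 PPAR alpha targets and enzymes of fatty acid oxidation (0.275% of all genes were). In 14 of the 37 every QHD array was above every GC array (37.8%, against 9.17% of all genes) and in none below. The median difference was 0.24, and 0.18 without GC 37. The medians per array over the list were 12.43, 12.43 and 12.36 with QHD and 12.24, 12.11 and 12.21 with GC. The HFD arrays (12.63, 12.28 and 12.78) lay above every QHD array, except HFD 36, which lay between the groups. Ehhadh, an enzyme of peroxisomal oxidation, had 0.91 ± 0.21 (adjusted p = 0.155), and the thioesterases Acot4 and Acot3 had 1.20 ± 0.32 and 1.30 ± 0.37 (adjusted p = 0.218 and 0.254). Of 42 subunits of oxidative phosphorylation none was called, with 39 of the differences positive and small (median 0.14) and 11 apart upward (26.2%, against 9.17% of all genes). Cyc1, the cytochrome c1 of complex III, had 0.39 ± 0.11 (adjusted p = 0.234). Sdhaf3, an assembly factor of succinate dehydrogenase outside that list, was called higher with QHD (0.58 ± 0.10, SE, adjusted p = 0.0425).

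**Figure D4:**
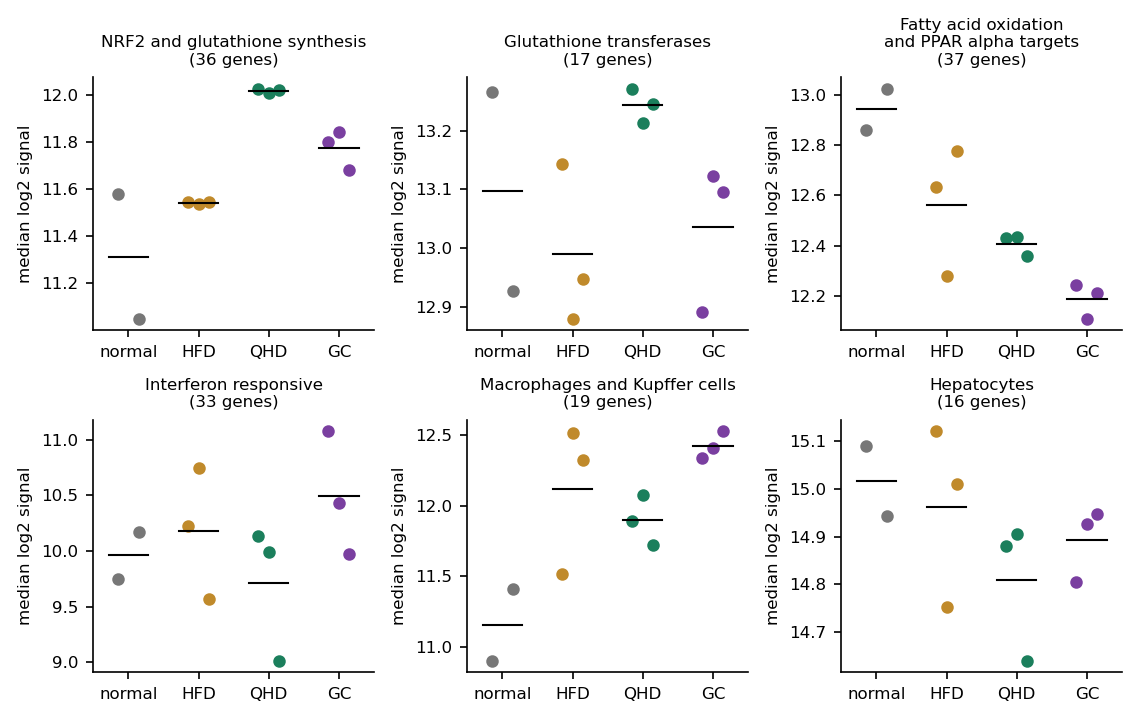
Median log2 signal over the measured genes of 6 lists on each array, with the group mean as a bar. In the lists of NRF2 and glutathione synthesis, glutathione transferases and fatty acid oxidation the QHD arrays lay above the GC arrays, and in macrophage and Kupffer cell markers below them.

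Besides Gckr, the genes called in each of the 11 fits without 1 array were Lama3, Mcrip2, Rcan2 and Oaf. Lama3, the alpha 3 chain of laminin in basement membranes, stood at 9.27, 9.27 and 9.18 with QHD and at 7.41, 6.60 and 7.63 with GC, a difference of 2.02 ± 0.25 (SE, 4.07-fold, adjusted p = 0.00804). The GC arrays lay among or below the HFD arrays (7.28 to 7.66) and the QHD arrays above every other array. Mcrip2, a protein of the MAPK-regulated corepressor group, stood at 11.14, 10.97 and 11.14 against 9.67, 9.68 and 9.91, with the smallest adjusted p of the comparison (1.33 ± 0.12, SE, adjusted p = 0.00304). Rcan2, an inhibitor of calcineurin, stood at 9.50, 9.59 and 9.68 with QHD and at 7.99, 8.17 and 8.06 with GC (1.51 ± 0.16, SE, adjusted p = 0.00344). Here the GC group was the one apart from HFD, by -1.17 ± 0.16 (SE) against 0.35 ± 0.16 for QHD. A second probe set of Rcan2 had 1.29 ± 0.22 (SE). Oaf, a secreted protein, stood at 11.02, 11.23 and 11.04 with QHD and at 12.23, 12.32 and 12.10 with GC (-1.12 ± 0.12, SE, adjusted p = 0.00344). The HFD arrays, 11.72 to 12.10, lay above QHD and reached the lowest GC array.

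Another 4 genes were lower with QHD. Xiap, an inhibitor of caspases, stood at 9.61, 8.99 and 9.09 with QHD and at 10.72, 10.57 and 10.46 with GC (-1.35 ± 0.19, SE, adjusted p = 0.0186), and the GC arrays were above all others. Tsc22d1, a transcription regulator with a leucine zipper, stood at 10.99, 11.17 and 11.39 against 12.28, 12.35 and 12.85 (-1.31 ± 0.20, SE, adjusted p = 0.0253). Its 3 other probe sets, whose mean signals lay under 6.66, read -0.69, -0.02 and 0.09, and the mean over all 4 was -0.48 and not called. Sdr42e1, a dehydrogenase/reductase, had -1.18 ± 0.16 (adjusted p = 0.0134) and Gucy1b2, a subunit of soluble guanylate cyclase, -0.93 ± 0.15 (SE, adjusted p = 0.0425). The 5 genes with the next smallest p in this direction were Mreg, Repin1, Gk, Rnf125 and Nr1d1, none of them called. Mreg, Repin1 and Rnf125 had -0.73, -0.50 and -1.20 (adjusted p = 0.0522, 0.0795 and 0.0805), and Gk and Nr1d1 are given above.

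Sall1, a zinc finger factor, was among the genes higher with QHD than with GC. It stood at 9.14, 9.22 and 9.46 with QHD and at 8.41, 7.84 and 8.31 with GC (1.09 ± 0.17, SE, adjusted p = 0.0278), and both groups lay below the HFD arrays (9.62 to 9.85). Tfrc, the receptor that takes up transferrin iron, stood at 12.16, 12.02 and 12.35 against 11.06, 11.45 and 11.20 (0.94 ± 0.15, SE, adjusted p = 0.0343), and its second probe set had 1.02 ± 0.21. Arhgef26 had 0.97 ± 0.15 (SE, adjusted p = 0.0278) and 1.30 ± 0.29 on its second probe set. The transcript listed as LOC102555217 had 0.72 ± 0.10 (SE, adjusted p = 0.0186).

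No gene of the immune lists was called. Of 19 markers of macrophages and Kupffer cells, the resident macrophages of liver, 0 were called (0.275% of all genes were), 18 differences were negative, and in 7 every QHD array was below every GC array (36.8%, against 9.31% of all genes) and in none above. Their summed signal was log2 16.42 to 16.66 with QHD, 16.80 to 16.85 with GC and 16.03 to 16.90 on the HFD arrays, with no marker at 0 on any QHD or GC array. In whole liver, fewer cells of a type and less RNA per cell cannot be told apart. Mpeg1, a pore-forming protein of macrophages, stood at 13.36, 13.44 and 13.17 with QHD and at 13.77, 13.81 and 13.79 with GC (-0.46 ± 0.14, SE, adjusted p = 0.259). C1qc, a chain of complement C1q, had -0.56 ± 0.19 (adjusted p = 0.339) and Aif1, an actin-binding protein of macrophages, -0.67 ± 0.27 (adjusted p = 0.443).

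All 10 genes of the MHC class II list had negative differences, with a median of -0.34. None was called (0.275% of all genes were), and 3 were apart downward (30%, against 9.31% of all genes). Cd74, the invariant chain, stood at 14.18, 14.38 and 14.32 with QHD and at 14.81, 14.62 and 14.70 with GC (-0.42 ± 0.16, SE, adjusted p = 0.409). Of 33 interferon responsive genes 32 were negative, with a median of -0.49, none called and 6 apart downward (18.2%, against 9.31%). The medians of that list were 10.14, 9.99 and 9.01 with QHD and 11.08, 10.43 and 9.97 with GC, so the groups overlapped. QHD 47 was the lowest of the 6 arrays. Ifi35 had -0.50 ± 0.15 (adjusted p = 0.276), and Psmb8 and Psmb9, subunits of the immunoproteasome, -0.53 ± 0.23 and -0.81 ± 0.36 (adjusted p = 0.480 and 0.497). Of 35 cytokines, chemokines and NF-kB targets 25 were negative, with a median of -0.19, none called and 7 apart downward (20%, against 9.31%). The part of macrophage content in the lower class II and interferon values was not tested.

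Markers of other cells were measured in the same way. The 14 T and NK cell markers had a median of -0.11 and none apart in either direction (9.17% of all genes were apart upward and 9.31% downward). The 6 B and plasma cell markers had -0.28, or -0.12 without GC 55. Stellate and endothelial markers had medians of -0.04 and -0.06. Only 3 neutrophil, 3 cholangiocyte and 6 adipocyte markers were tested, with medians of -0.53, 0.06 and 0.20 and no call (0.275% of all genes were called). The 16 hepatocyte markers had a median of -0.08 with 1 apart upward (6.25%, under the 9.17% of all genes). It was Tat, an enzyme of tyrosine breakdown (1.05 ± 0.40, SE, adjusted p = 0.432). The summed signal of 7 erythroid genes was higher on every GC array (log2 13.85 to 13.93) than on any QHD array, the highest of which read 13.73. Their median overlapped (5.52 to 6.45 with QHD, 6.38 to 7.19 with GC), and 4 of the 7 lay under the filter level. The summed signal of 8 neutrophil markers was likewise higher with GC (12.17 to 12.41, against 11.56 to 12.02 with QHD). That of 10 adipocyte markers was lower with GC (12.24 to 12.40, against 12.46 to 12.69). None of the erythroid genes tested was called.

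**Figure D5:**
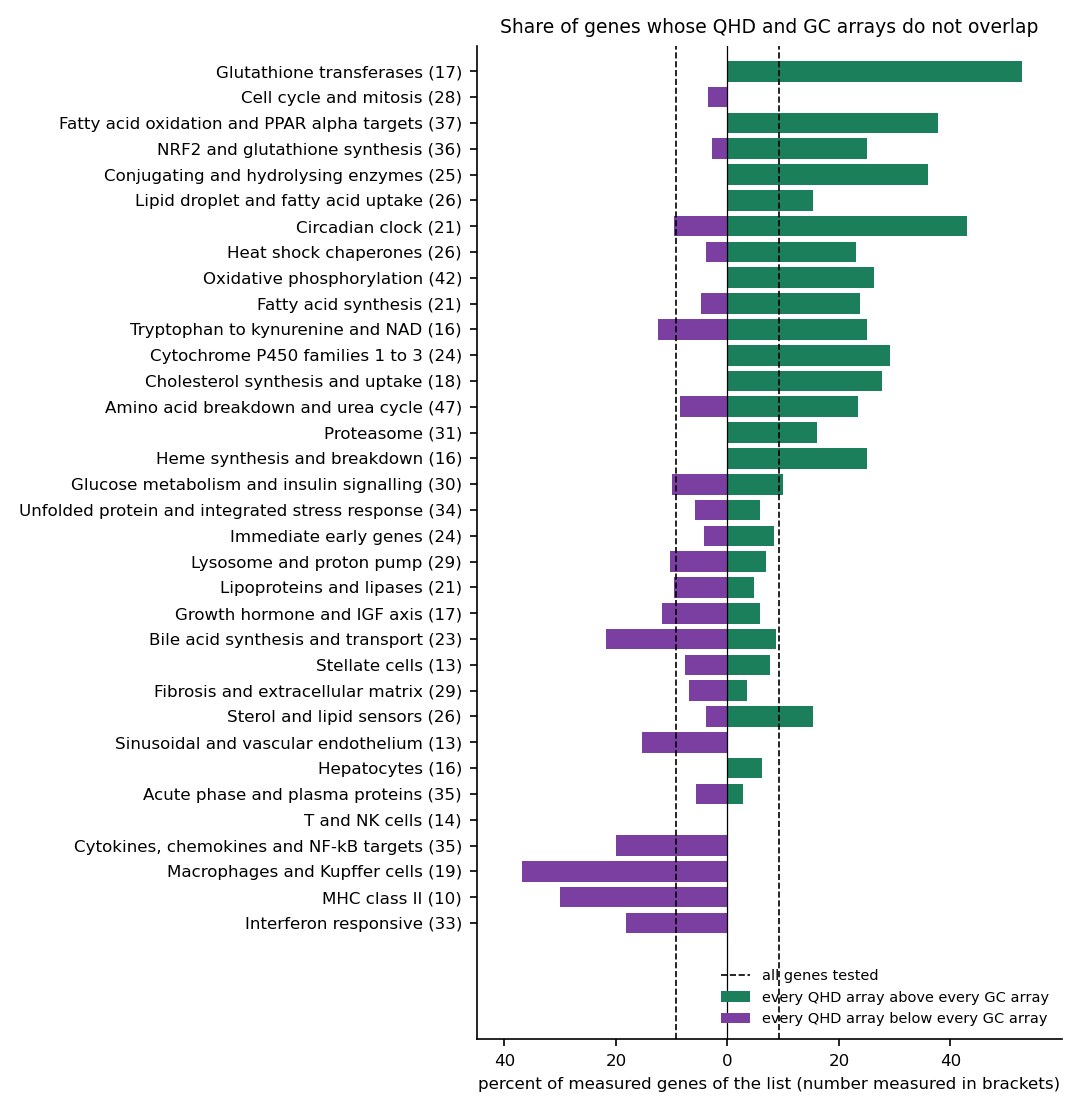
Share of the measured genes of each list drawn in which every QHD array lay above every GC array (bars to the right) or below it (bars to the left), in percent, with dashed lines at the shares among all 9459 genes, 9.17% and 9.31%. The B and plasma cell, neutrophil, cholangiocyte, adipocyte and erythroid markers, of which few were measured, and the fatty liver panel are not drawn. The longest bar to the right is that of glutathione transferases (52.9%) and the longest to the left that of macrophage and Kupffer cell markers (36.8%).

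The counts of genes that were apart in the lists that follow stand against 9.17% of all genes upward and 9.31% downward. Counts of calls there stand against 0.275% of all genes. Bile acid synthesis and transport had a median of -0.04 over 23 genes with 5 apart downward (21.7%) and 2 upward (8.7%), and none called. Several lists had medians close to that of all genes. Lipoproteins and lipases had a median difference of -0.01 over 21 genes, the unfolded protein response 0.01 over 34, lysosome and proton pump 0.00 over 29, immediate early genes 0.01 over 24, the growth hormone axis -0.02 over 17 and extracellular matrix genes -0.04 over 29. None of these lists held a called gene. Amino acid and urea cycle genes had a median of 0.07 over 47 with 11 apart upward (23.4%) and 4 downward (8.51%), and acute phase and plasma proteins -0.10 over 35 with 1 upward and 2 downward. Cell cycle genes had a median of 0.28 over 28 with 23 positive, but the arrays were apart in only 1, downward. Heat shock chaperones had a median of 0.15 over 26 (6 apart upward, 23.1%, and 1 downward), proteasome subunits 0.05 over 31 (5 upward, 16.1%), heme genes 0.04 over 16 (4 upward, 25%) and lipid droplet and fatty acid uptake genes 0.19 over 26 (4 upward, 15.4%).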

How the data were processed

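The authors deposited log2 signals from rat Affymetrix arrays. The submitters' processing notes name Expression Console and MAS5, without versions, and the labels' protocols a start of 6 µg total RNA. Each array had a trimmed mean of about 500.2 linear units. Both deposited tables held identical signals, and all sample columns were mapped. Detection calls were not used here. The platform annotation gave 1 symbol to 20832 probe sets, several to 436 and none to 9831.

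Models with 1 mean per group were fitted to 11 arrays with limma 3.58.1 in R 4.3.3 (moderated variances with trend and the robust option, 7 residual degrees of freedom). Every adjusted p is limma's two-sided p with Benjamini-Hochberg adjustment across 9459 genes, and called means under 0.05. SE and 95% intervals come from the same fit. The number of arrays limits the precision. Simulated signals with 200 changed genes were used to test the fit: over 10 draws 69.8% of changes of log2 size 1 and 96.3% of size 2 were found, and 4.69% of calls were false. These shares hold for the simulated setting only, since the fit reported called 26 genes and a threshold adjusted over fewer changes is stricter. In the data, 17 of the 96 genes with a log2 difference over 1 in either direction were called.

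The genes named are the 15 largest called differences in each direction with groups that did not overlap (for the lower ones all 8, with the 5 uncalled genes of smallest p), up to 3 members per list by smallest p, a panel of fatty liver genes and the genes called in every leave-one-out fit; the remaining called genes and a few others were added after their values were seen. The comparison, the choice of 11 arrays and all 39 lists were chosen with earlier results of these data known. Lists were described by counts and medians, without a set test. Alternatives changed the arrays, their weights, the moderation, the normalization, the filter and the choice of probe set. Promoters are RefSeq sequences of build GRCr8, and figures were drawn with matplotlib 3.10.9.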

Additional observations from a re-analysis of the deposited data

Results flagged for a closer look

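The array labelled normal diet 3, which enters no value of the comparison, carried a signal of another tissue. Its 10 adipocyte markers had a median of log2 13.52, and the remaining 11 arrays read 6.49 to 7.83.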

How the results depend on the processing

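The count of 26 genes was 0 over all 12 arrays (277 genes at an unadjusted p under 0.05), 70 over the 6 QHD and GC arrays alone, 185 with array weights over 11 arrays, 154 with array weights over all 12 (chosen after the data were seen), 10 with moderation that leaves out the trend and robust option and 3 with no moderation. The cause of these shifts was not tested. Leaving out 1 array gave 6 (without GC 55) to 59 (without HFD 36); it gave 11, 10 and 8 without QHD 45, 46 and 47, and 8 and 7 without GC 35 and 37. The other settings gave 19 to 28 calls: the 9 arrays on the high-fat diet 23 (18 of the 26 among them), quantile normalization 28, 32 added to the signals 26, the upper 25% of signal 22, no filter 19, and all 20832 probe sets with 1 symbol 22. An unequal-variance test of the 6 arrays gave 780 genes at an unadjusted p under 0.05 and 0 after adjustment. Of the 26, 8 kept their call in each of the 13 planned settings other than all 12 arrays and no moderation, leave-one-out fits aside. No list median with 5 or more genes was moved by more than the spread of its arrays except in 9 of 922 comparisons, all by leaving out 1 array. The 922 include settings that could not move a median. Without weights, a change in only the HFD or normal diet arrays or the moderation leaves QHD minus GC as it is. No paired analysis was possible because the groups share no replicate numbers. Signals near the lower end, such as Npas2 with QHD, have no exact fold.
The sign turned in 24 of 3721 comparisons of a named gene with its alternative, all in genes that were not called in the fit reported. The settings that leave QHD minus GC as it is are counted among the 3721. Over the probe sets of a gene Prodh averaged -0.011 (0.66 in the fit reported) and Cdc20 -0.40 (0.58). With array weights over 11 and 12 arrays the difference was -0.0554 and -0.0531 for Epcam (0.06), -0.18 and -0.18 for Krt19 (0.05) and 0.0929 and 0.0869 for Plin2 (-0.16). Leaving out 1 array turned the sign of Anxa4 (-0.0732 to 0.19), Epcam (-0.0083 to 0.15), Krt19 (-0.26 to 0.24), Hba-a3 (-0.16 to 0.0282), Srebf1 (-0.20 to 0.13), Scd (-0.66 to 0.28), Cpt1a (-0.0063 to 0.25), Pparg (-0.42 to 0.12), Mttp (-0.0256 to 0.17) and Ccl2 (-0.27 to 1.10).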
